A study of Mus musculus with 6 samples.

Results

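Glycolytic enzymes were measured here as transcripts in lung innate lymphoid cells (ILCs) of Rbm3 knockout mice (RBM3KO) and wild-type mice (WT). The members are 10 enzymes named by symbol, Hk1, Hk2, Pfkp, Pfkl, Aldoa, Gapdh, Pgk1, Pgam1, Ldha and Pkm2, out of 14416 genes in the deposited table. All 10 were found and all 10 passed the filter on low counts, with at least 79 counts in every library. Pkm2 is an older symbol of Pkm, and its count covers the whole gene, so the M1 and M2 splice forms of pyruvate kinase cannot be told apart. RBM3 binds RNA and is induced by cold, and the series asks whether it restrains ILCs and lung inflammation.

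Both groups were C57BL/6J mice given the mould allergen Alternaria alternata, 25 µg at each of 3 challenges over 7 days, so no unchallenged group is compared. Lin-Thy1.2+ ILCs were sorted from lung, with 3 libraries from WT and 3 from RBM3KO mice, and sequenced by Smart-seq2. The labels give genotype as WT or RBM3KO, and the sources used here give neither the age of the mice nor the knockout allele or the cells in which it acts. The cells were sorted on either of a pair of sorter models, with no record here of which library came from which.

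Glycolysis turns glucose into pyruvate in the cytosol, first spending ATP to phosphorylate and split the sugar and then regaining more ATP from the triose phosphates. Lactate dehydrogenase then reduces pyruvate to lactate and renews the NAD+ that the GAPDH step needs. Activated lymphocytes, ILC2s among them, are known to draw on this pathway for growth and cytokine production.

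The library totals ran from 7498247 to 25068137 counts, and between 11782 and 12654 genes had at least 1 count. Levels are CPM, a count relative to the size of its library, scaled by TMM, edgeR's correction for library composition, unless stated otherwise. Rbm3 had 270, 314 and 293 CPM for WT and 26.5, 22.4 and 31.6 CPM for RBM3KO, so each library matched its label (log2 fold change -3.45, edgeR adjusted p = 2.23e-06). The ILC markers Thy1, Il7r and Gata3 were present in every library, and 0 of 10 listed ILC markers passed the test. Their summed level was nevertheless higher in every RBM3KO library (6531 to 6956 CPM of the total count) than in any WT library (4816 to 5928). For 7 of the 10 all RBM3KO libraries lay above all WT libraries, where 8.43% of all tested genes were separated in this way. These were Il7r, Id2, Rora, Il1rl1 and the effector genes Areg, Il5 and Il13. Thy1 (log2 fold change -0.02), Gata3 (0.12) and Il2ra (0.15) overlapped. The highest terms of the sum were Id2 (1700 ± 64.3 and 2067 ± 220 CPM, TMM, SD, n = 3, in WT and RBM3KO) and Areg (1016 ± 329 and 1628 ± 225). The sum therefore mixes lineage markers with effector transcripts. In the same libraries 8 of 10 proliferation genes passed the test as lower in RBM3KO, where 1.00% of all tested genes did. The estimates of all 10 were below 0. Their summed levels (CPM of the total count) were 1097 to 1429 in WT and 411 to 570 in RBM3KO. Listed markers of T cells summed to 560 to 706 CPM in WT and 495 to 751 in RBM3KO. Of this list Lck (357 and 342 CPM on average, TMM) and Cd3g (177 and 243) stood highest. Cd3d, Cd3e, Cd4, Cd8a, Cd8b1 and Cd28 each averaged at most 22.2 CPM in either group. Those of B cells summed to 61.5 to 90.4 and 40.5 to 47.0 CPM. Those of myeloid cells summed to 25.5 to 157 and 3.91 to 72.6 CPM, with Marco and S100a9 at 0 in every WT library. Markers of epithelium, stroma and endothelium summed to 62.3 to 150 and 78.9 to 330 CPM, with Col3a1 at 0 in every WT library and Krt8 and Col1a1 in every RBM3KO library. Sftpc of this list had 14.0, 75.7 and 6.74 CPM (TMM) in WT and 9.59, 7.82 and 248 in RBM3KO. Markers of red cells and platelets summed to 0.239 to 1.35 and 0 to 3.33 CPM, with Itga2b at 0 in every WT library and Alas2 in every RBM3KO library. No gene of the cell type marker lists passed the test. The part of proliferation and of carried-over cells in the values below was not tested, and in bulk samples fewer cells of a type cannot be told apart from less RNA per cell.

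The hypoxia-inducible factor HIF-1 is known to drive many glycolytic genes by binding the core letters ACGTG or GCGTG. The 250 bases before the start site of each member were taken from RefSeq (GRCm38.p6), all 10 members matched, and the window nearest to the 5' end of the gene's principal transcript was used. The 4 windows with ACGTG are shown, a choice made after the values of Hif1a (below) were seen. The log2 fold changes of these 4 genes were -0.40 (Hk2), 0.11 (Aldoa), -0.18 (Pgk1) and -0.40 (Pgam1). Those of the members with GCGTG alone were 0.28 (Pfkp), -0.07 (Pfkl), -0.24 (Gapdh) and -0.15 (Ldha). The members with neither had 0.29 (Hk1) and -0.01 (Pkm2). Any part of HIF-1 in them was not tested. Capitals mark ACGTG and GCGTG on either strand, where CACGT and CACGC are the other strand's letters.
Hk2 (chr6:82774455-82774704, - strand): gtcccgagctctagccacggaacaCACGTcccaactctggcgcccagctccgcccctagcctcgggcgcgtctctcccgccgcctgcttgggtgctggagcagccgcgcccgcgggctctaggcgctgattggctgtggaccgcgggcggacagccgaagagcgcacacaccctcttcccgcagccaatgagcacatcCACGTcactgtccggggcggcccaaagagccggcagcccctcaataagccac
Aldoa (chr7:126799255-126799504, - strand): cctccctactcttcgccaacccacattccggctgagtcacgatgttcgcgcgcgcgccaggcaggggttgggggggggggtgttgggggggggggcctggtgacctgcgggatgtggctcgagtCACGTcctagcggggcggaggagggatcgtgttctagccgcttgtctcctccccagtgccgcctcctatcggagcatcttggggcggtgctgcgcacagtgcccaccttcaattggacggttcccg
Pgk1 (chrX:106186850-106187099, + strand): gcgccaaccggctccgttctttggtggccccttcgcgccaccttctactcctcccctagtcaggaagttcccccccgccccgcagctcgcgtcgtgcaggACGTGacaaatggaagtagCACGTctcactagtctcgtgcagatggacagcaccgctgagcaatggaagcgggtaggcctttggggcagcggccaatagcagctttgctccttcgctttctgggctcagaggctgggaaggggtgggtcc
Pgam1 (chr19:41911621-41911870, + strand): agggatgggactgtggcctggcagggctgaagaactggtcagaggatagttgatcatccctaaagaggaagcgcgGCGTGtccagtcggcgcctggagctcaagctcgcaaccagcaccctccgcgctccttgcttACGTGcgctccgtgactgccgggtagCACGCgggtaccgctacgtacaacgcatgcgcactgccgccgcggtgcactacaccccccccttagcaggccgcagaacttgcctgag
ACGTG was found in 4 of the 10 windows and in 16.6% of all 32851 promoter windows of this length, and GCGTG in 5 of the 10 and in 28.2% of all. Pgam1 held both. The palindrome CACGTG, which contains ACGTG on both strands, was in 0 of the 10. Pgk1 held ACGTG letters 150 and 131 bases before its start, Hk2 226 and 52, Aldoa 126 and Pgam1 114. The windows of all genes were not matched to the members for base content or gene class, so these shares cannot show enrichment. A match is a description of letters and shows no binding.

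None of the 10 enzymes passed the test between the genotypes (edgeR's quasi-likelihood test, Benjamini-Hochberg adjusted p threshold 0.05), and the background was 1.25% of 11382 tested genes, so a count of 0 in 10 does not stand apart from it. DESeq2 called 1 of the 10, Gapdh (DESeq2 adjusted p = 0.0361), where it called 3.64% of all tested genes, 2.29% as lower. At an unadjusted p under 0.05 there were 2 higher (Hk1 and Pfkp) and 2 lower (Gapdh and Pgam1), where 12.3% of all tested genes passed. The 3 WT and 3 RBM3KO libraries did not overlap for 3 members, Hk1 higher and Gapdh and Pgam1 lower, where 18.9% of all tested genes were separated in this way. By direction, 0.246% of all tested genes passed the adjusted threshold as higher and 1.00% as lower, 5.46% and 6.87% did at the unadjusted one, and 8.43% and 10.5% were separated upward and downward. The estimate was below 0 for 7 of the 10, with a median log2 fold change of -0.11, beside 49.1% below 0 and a median of 0.01 over all tested genes. Among the 309 tested genes of 500 CPM or more 13 passed the adjusted threshold and 30.1% were below 0, with a median of 0.10. Only Aldoa, Gapdh, Ldha and Pkm2 of the members reach that level, so these genes are not matched in level to the 10. The median size of the log2 fold change, in either direction, was 0.21 for the members (median SE 0.10), 0.28 for all tested genes (median SE 0.31) and 0.15 for those of 500 CPM or more (median SE 0.09). Together the 10 took 1.20%, 1.21% and 1.19% of all counts for WT and 1.16%, 1.06% and 1.07% for RBM3KO.

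**Figure D1:**
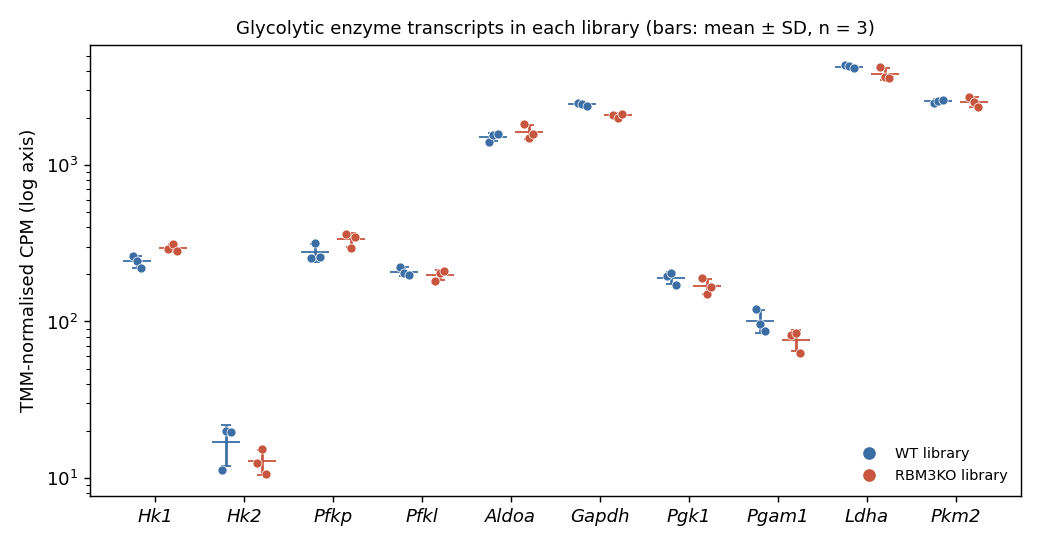
Each point is the TMM-normalised CPM (log axis) of an enzyme in a library, with WT in blue and RBM3KO in red, and bars give the mean ± SD of 3 libraries. The genotypes are separated for Hk1, Gapdh and Pgam1 and overlap for the other members.

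Hexokinase phosphorylates glucose and so traps it in the cell. Hk1, the form most cells express, stood at 261, 245 and 220 CPM in WT and at 291, 314 and 282 CPM in RBM3KO. All RBM3KO libraries lay above all WT libraries, with a log2 fold change of 0.29 (SE 0.10, 95% interval 0.06 to 0.52) that did not pass the test (edgeR adjusted p = 0.260). Hk2, the inducible form, was the lowest member, at 11.2, 19.9 and 19.6 CPM in WT and 12.4, 15.3 and 10.6 CPM in RBM3KO. WT replicate 1 lay among the knockout libraries, and the log2 fold change of -0.40 (SE 0.35, edgeR adjusted p = 0.752) had an interval from -1.17 to 0.37, which leaves a change by more than 2-fold downward undecided. Without WT replicate 1 the estimate was -0.62. The raw Hk2 counts were 152, 338 and 500 in WT and 190, 257 and 79 in RBM3KO, so this gene rests on far fewer reads than the others.

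Phosphofructokinase adds the second phosphate and is the main point of control of the pathway. Pfkp, the platelet-type subunit, had 254, 316 and 259 CPM in WT and 363, 296 and 345 CPM in RBM3KO. RBM3KO replicate 2 fell below WT replicate 2, so the groups overlapped (log2 fold change 0.28, SE 0.12, edgeR adjusted p = 0.380). Pfkl, the liver-type subunit, had 223, 204 and 198 CPM in WT and 182, 204 and 211 CPM in RBM3KO, with the libraries of both groups interleaved. The fitted difference was -0.07 on the log2 scale (SE 0.11, edgeR adjusted p = 0.892). Pfkm, the muscle-type subunit and not a member, stood at 19.3 ± 6.14 and 21.2 ± 13.1 CPM (SD, n = 3) in WT and RBM3KO.

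Aldolase splits fructose bisphosphate into 2 trioses. Aldoa had 1403, 1554 and 1583 CPM in WT and 1820, 1495 and 1588 CPM in RBM3KO. RBM3KO replicate 1 was the highest library and the other two lay within the WT range or just above it (log2 fold change 0.11, SE 0.09, edgeR adjusted p = 0.734). The 95% interval, from -0.09 to 0.32, reaches 1.25-fold upward on the linear scale. The estimate was 0.03 without RBM3KO replicate 1, 0.06 without WT replicate 1 and 0.17 without RBM3KO replicate 2.

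GAPDH oxidises the triose phosphate and makes NADH. Gapdh, often used as a reference gene in assays of expression, stood at 2488, 2455 and 2395 CPM in WT and at 2088, 2009 and 2130 CPM in RBM3KO. All RBM3KO libraries lay below all WT libraries, and the spread within each genotype was small, with a coefficient of variation of 1.93% in WT and 2.95% in RBM3KO. The log2 fold change of -0.24 (SE 0.07, 95% interval -0.39 to -0.08) had the smallest adjusted p of the 10 and did not pass (edgeR adjusted p = 0.170). On the linear scale that interval runs from 0.762-fold to 0.945-fold. With DESeq2 the log2 fold change was -0.23 and passed, and over the other settings tried the adjusted p of Gapdh did not fall below 0.05.

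Ratios within a library do not depend on the scaling between libraries. Per 1000 Gapdh counts, Hk1 had 105, 99.8 and 91.8 counts in WT and 139, 156 and 132 in RBM3KO, Aldoa 564, 633 and 661 against 871, 744 and 746, and Pkm2 1001, 1045 and 1096 against 1308, 1254 and 1109. These ratios share Gapdh, which was itself lower in every RBM3KO library, and were chosen after the values were seen. Of the 9 other members, Hk1, Pfkp, Aldoa and Pkm2 were separated upward per Gapdh count and 0 downward, where 22.6% of all tested genes were separated upward and 4.78% downward on the same ratio. Hk2, Pfkl, Pgk1, Pgam1 and Ldha overlapped. Ldha had 1747, 1743 and 1742 counts per 1000 of Gapdh in WT and 2038, 1816 and 1699 in RBM3KO.

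Phosphoglycerate kinase yields the first ATP of the payoff phase, and phosphoglycerate mutase moves the remaining phosphate. Pgk1 had 196, 204 and 172 CPM in WT and 189, 151 and 165 CPM in RBM3KO, with RBM3KO replicate 1 inside the WT range (log2 fold change -0.18, SE 0.12, edgeR adjusted p = 0.642). Pgam1 had 120, 96.9 and 87.0 CPM in WT and 81.4, 84.4 and 63.1 CPM in RBM3KO. The estimate for Pgk1 was -0.27 without RBM3KO replicate 1 and -0.10 without RBM3KO replicate 2. The groups of Pgam1 did not overlap, though WT replicate 3 and RBM3KO replicate 2 lay close together. The log2 fold change of -0.40 (SE 0.17, 95% interval -0.78 to -0.03) did not pass (edgeR adjusted p = 0.369), and it was -0.27 without WT replicate 1.

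Pyruvate kinase makes the second ATP and lactate dehydrogenase closes the pathway. Pkm2 had 2489, 2565 and 2624 CPM in WT and 2731, 2519 and 2361 CPM in RBM3KO, with the knockout libraries on both sides of the WT range. The fitted difference was -0.01 on the log2 scale (SE 0.08, edgeR adjusted p = 0.979), and the 95% interval on the linear scale ran from 0.880-fold to 1.12-fold. Ldha, the subunit that favours lactate formation, had 4347, 4279 and 4171 CPM in WT and 4256, 3648 and 3619 CPM in RBM3KO. RBM3KO replicate 1 lay in the WT range and the other two below it (log2 fold change -0.15, SE 0.08, edgeR adjusted p = 0.497). Without RBM3KO replicate 1 it was -0.23.

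By position in the pathway, the 5 members from Gapdh to Ldha all had an estimate below 0 (median log2 fold change -0.18), that of Pkm2 turning above 0 without WT replicate 3 or RBM3KO replicate 3, and of the 5 from hexokinase to aldolase 2 did (median 0.11). This split was made after the values were seen, covers the members only and was not tested. Among non-members of at least 10 CPM that act before GAPDH, Tpi1 had -0.38, Adpgk -0.02, Gpi1 0.01 and Pfkm 0.14. Of those that act after it, Eno1 had -0.10 and Ldhb 0.01.

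**Figure D2:**
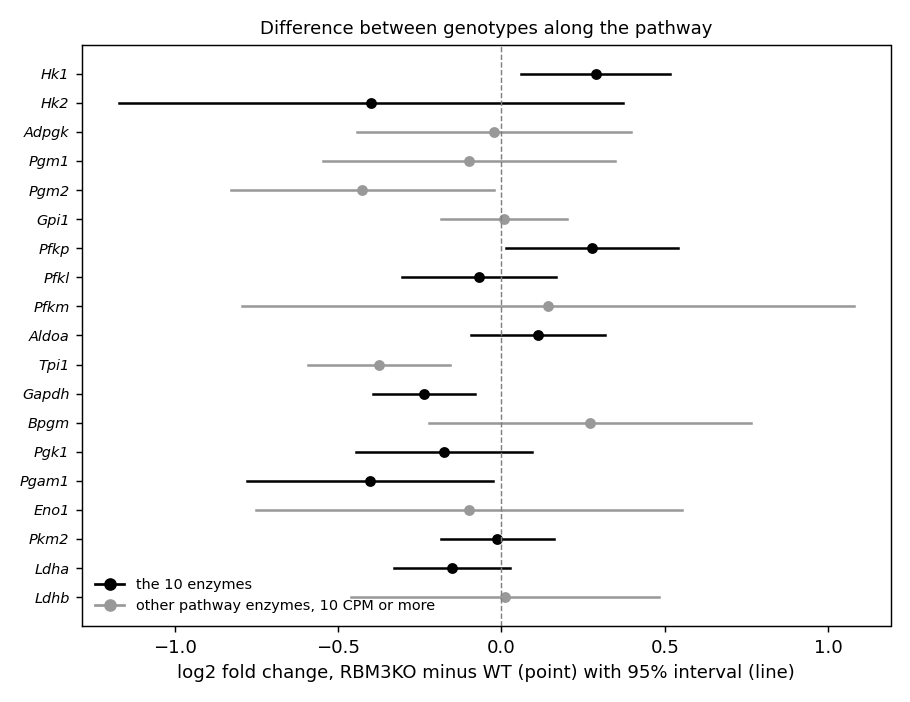
Points are log2 fold changes of RBM3KO minus WT from the edgeR fit and lines their 95% intervals, for the 10 enzymes (black) and the other pathway enzymes of at least 10 CPM (grey), from hexokinase at the top to lactate dehydrogenase at the bottom. Among the black lines those of Hk1 and Pfkp lie above 0 and those of Gapdh and Pgam1 below 0, before adjustment for the number of genes tested.

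Isozymes that serve the same step were compared as shares within a library, with counts divided by transcript length. Hk2 made up 2.92%, 5.36% and 5.85% of Hk1 plus Hk2 in WT and 2.89%, 3.30% and 2.57% in RBM3KO, so Hk1 dominated in every library. The difference was -1.79 percentage points (exact two-sided permutation p = 0.2, adjusted p = 0.3 over the 3 shares), and WT replicate 1 lay with the knockout libraries. Pfkp made up 50.6%, 58.2% and 54.0% of Pfkp plus Pfkl in WT and 64.3%, 56.6% and 59.5% in RBM3KO. The groups overlapped, with a difference of 5.87 percentage points (exact two-sided permutation p = 0.2, adjusted p = 0.3). Ldha made up 98.6 ± 0.278% of Ldha plus Ldhb in WT and 98.4 ± 0.196% in RBM3KO (SD, n = 3, exact two-sided permutation p = 0.5, adjusted p = 0.5). With 3 libraries a side the smallest exact p is 0.1.

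**Figure D3:**
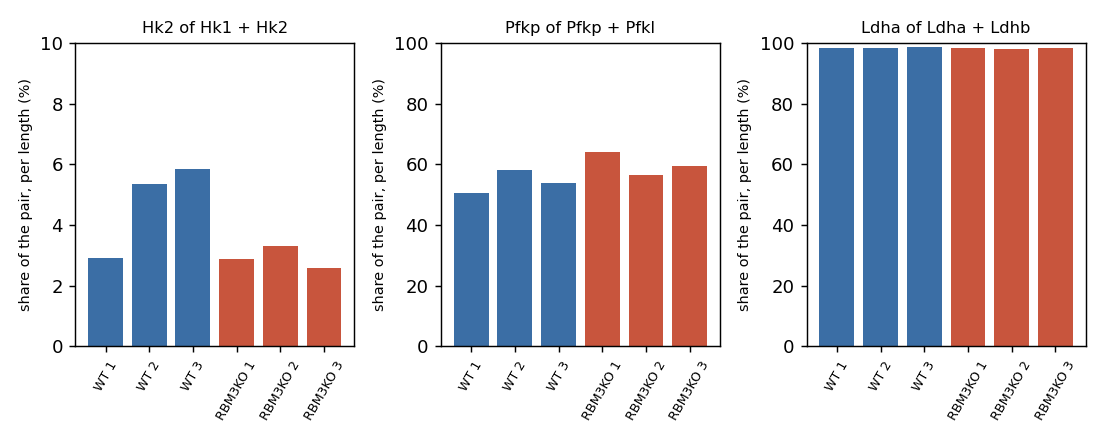
Bars give, for each of 6 libraries (WT blue, RBM3KO red), the share in percent of the first-named isozyme within its pair, from counts per transcript length. The axis of the hexokinase panel ends at 10% and those of the others at 100%, and the bars of Ldha are all above 98%.

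Levels of different genes can be compared per length only, and were taken as CPM per kb of the principal transcript in GENCODE M21, whose assembly is that of mm10. In WT, Ldha stood highest at 2415 ± 50.1 CPM per kb (SD, n = 3), then Gapdh at 1722 ± 33.3, Pkm2 at 1052 ± 27.9 and Aldoa at 1002 ± 63.8. Pkm2 and Aldoa did not differ beyond their spread, and all 4 were among the top 0.63% of 11276 tested genes with a length, ranked by the mean over the 6 libraries. Below them followed Pgk1 at 104 ± 9.12, Pfkp at 66.6 ± 8.38, Hk1 at 62.8 ± 5.37, Pgam1 at 57.0 ± 9.47 and Pfkl at 55.9 ± 3.52 CPM per kb. Of these the last 4 overlapped in their spread. Hk2 was last at 3.06 ± 0.889 CPM per kb. In RBM3KO the order was Ldha 2175 ± 203, Gapdh 1462 ± 43.1, Aldoa 1082 ± 111 and Pkm2 1043 ± 76.3, so Aldoa and Pkm2 changed places within their spread. The lower members stood at 92.4 ± 10.6 (Pgk1), 80.7 ± 8.44 (Pfkp), 76.7 ± 4.29 (Hk1), 53.3 ± 4.08 (Pfkl), 43.0 ± 6.49 (Pgam1) and 2.32 ± 0.432 CPM per kb (Hk2).

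**Figure D4:**
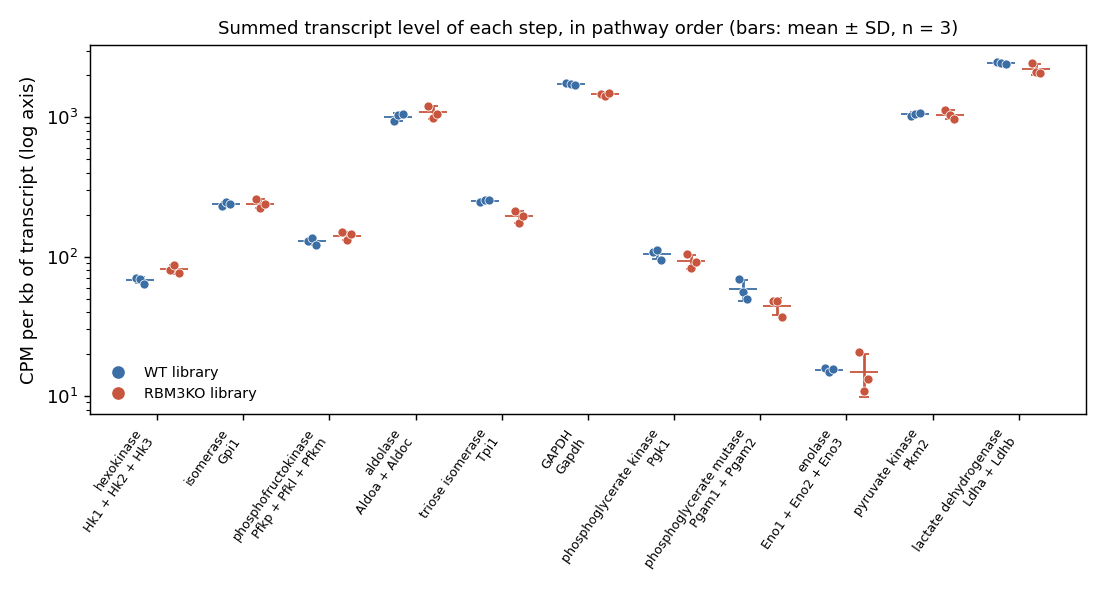
Points are the summed CPM per kb (log axis) of the enzymes that serve each step, in pathway order, for each WT (blue) and RBM3KO (red) library, with bars for the mean ± SD of 3 libraries. Aldolase, GAPDH, pyruvate kinase and lactate dehydrogenase stand near or above 1000 CPM per kb and enolase at 15.5 and 14.9 in WT and RBM3KO.

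The levels per length need care, since several members have near-identical copies elsewhere in the genome and reads from the shared parts can be split or dropped in counting. Of the 50-base words of the Gapdh transcript, 82.5% also stood in transcripts of other genes, 213 of these 222 genes being annotated as pseudogenes. The share was 68.0% for Pgk1, 41.5% for Pgam1, 34.4% for Pkm2, 17.1% for Ldha and 13.9% for Aldoa, with most or all of the other genes pseudogenes. For Pfkp 17.1% was shared with the overlapping neighbour Pitrm1 alone, whose reads cannot be told apart without strand. Hk1 and Hk2 shared 0% and Pfkl 0.0543%. The coding stretch of 50 bases held by the most other genes is shown for Gapdh and Pgam1, to illustrate how exact such copies are, with bases counted from the A of the start codon.
Gapdh, coding bases 415 to 464: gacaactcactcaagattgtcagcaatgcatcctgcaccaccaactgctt
Pgam1, coding bases 451 to 500: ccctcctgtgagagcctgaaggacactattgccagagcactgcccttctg
The Gapdh stretch was found in 84 other annotated genes and that of Pgam1 in 3. Eno1, the main enolase of most cells and not a member, had 72.2% shared, chiefly with the retrogene Eno1b. Its level was 8.13 CPM per kb in WT and 7.57 in RBM3KO, far below the neighbouring steps Pgam1 and Pkm2. Whether lost reads set these levels was not tested. The word length was set for this comparison, since the sources used here give no read length.

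**Figure D5:**
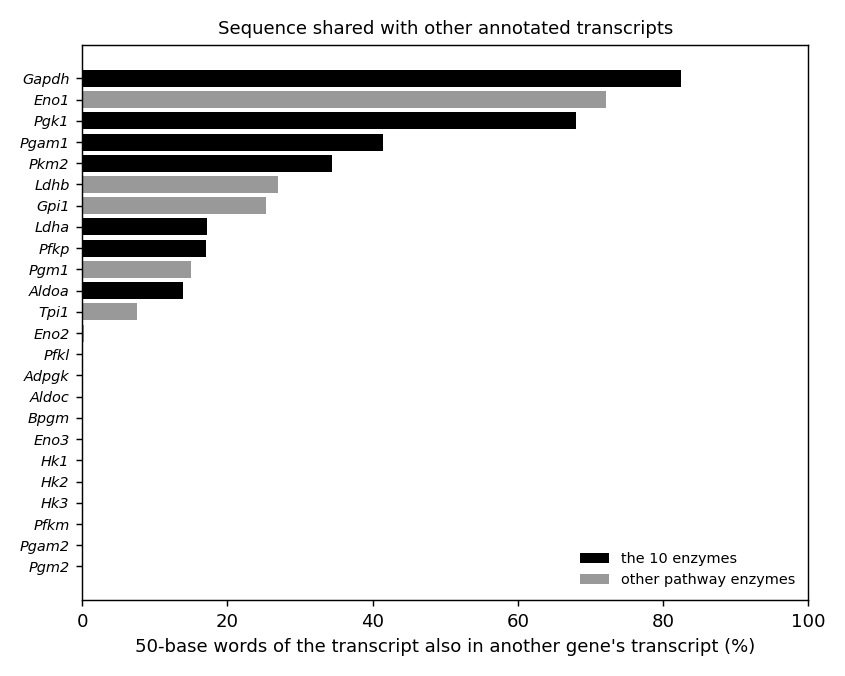
Bars give the percentage of 50-base words of each enzyme's principal transcript that also occur in a transcript of another gene, on either strand, for the 10 enzymes (black) and other pathway enzymes (grey). Gapdh (82.5%), Eno1 (72.2%) and Pgk1 (68.0%) share the most, and Hk1 and Hk2 share none.

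In GENCODE M21 coordinates (mm10), all 10 are protein-coding genes. Hk1 spans chr10:62268855-62379908 and Pfkl chr10:77986947-78010083, Hk2 chr6:82725025-82774454 and Gapdh chr6:125161715-125166467, and Aldoa chr7:126795234-126800751 and Ldha chr7:46841475-46855627. Pfkp spans chr13:6579768-6648777, Pgk1 chrX:106187100-106203699, Pgam1 chr19:41911923-41918660 and Pkm2 chr9:59656368-59679375. Symbol Aldoa stands for a pair of adjacent gene models in this annotation, and the one with the longer coding sequence was used.

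Of the other enzymes of the pathway 0 of 14 tested passed in either direction, where 1.25% of all tested genes did, so this count does not stand apart from that share. Their median log2 fold change was 0.01. Of the 14, 0 were separated upward and 2 downward, where 8.43% and 10.5% of all tested genes were. Tpi1, the triose phosphate isomerase that stands between aldolase and GAPDH, had the smallest adjusted p, with WT libraries (405 ± 6.22 CPM) all above those of RBM3KO (312 ± 30.6 CPM, SD, n = 3) (log2 fold change -0.38, SE 0.10, edgeR adjusted p = 0.120). Gpi1, the isomerase after hexokinase, stood at 686 ± 19.4 and 690 ± 50.6 CPM (log2 fold change 0.01, edgeR adjusted p = 0.987). Of the phosphoglucomutases, which link glycolysis to glycogen, Pgm2 had 69.8 ± 3.97 and 51.9 ± 9.30 CPM (log2 fold change -0.43, edgeR adjusted p = 0.372) and Pgm1 40.9 ± 3.78 and 38.2 ± 4.46 CPM. Ldhb stood at 45.4 ± 9.87 and 45.6 ± 3.79 CPM, Adpgk, which phosphorylates glucose with ADP, at 71.7 ± 7.43 and 70.5 ± 15.4 CPM, Bpgm, which makes bisphosphoglycerate, at 56.5 ± 10.3 and 67.9 ± 17.3 CPM, and Eno1 at 16.5 ± 0.936 and 15.4 ± 1.90 CPM.

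Steps that feed and drain the pathway were read from lists. With 1.25% of all tested genes called, a count of 0 in lists this short does not stand apart from the background. Of 7 glucose and lactate transporters 0 passed, with 1 separated upward and 2 downward, where 8.43% and 10.5% of all tested genes were. Slc2a3, a high-affinity glucose transporter, had 148 ± 13.5 and 181 ± 33.2 CPM, Slc2a1, the main glucose transporter of most cells, 67.6 ± 10.1 and 71.1 ± 17.1 CPM, and Bsg, the chaperone of the lactate transporters, 558 ± 11.7 and 573 ± 33.9 CPM. Slc16a1, which encodes the lactate carrier MCT1 and is named after its values were seen, had 49.0 ± 2.34 and 25.4 ± 7.83 CPM with no overlap, the largest size of log2 fold change in that list (-0.95, SE 0.26, edgeR adjusted p = 0.131). Of 5 tested regulators of fructose bisphosphate 0 passed, and all lay near or below 10 CPM, led by Pfkfb3 (7.96 ± 4.51 and 10.3 ± 1.23 CPM), Fbp1 (6.25 ± 8.30 and 7.48 ± 9.57) and Pfkfb4 (3.70, 1.35 and 2.74 CPM in WT, 7.04, 3.76 and 4.85 in RBM3KO).

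Of 12 tested genes of pyruvate entry into mitochondria 0 passed, where 1.25% of all tested genes did, with a median log2 fold change of -0.04. Pdhb, a subunit of pyruvate dehydrogenase, had 207 ± 8.28 and 218 ± 14.6 CPM, Pdha1 121 ± 13.5 and 119 ± 19.9 CPM, and the pyruvate carrier gene Brp44l (Mpc1) 78.4, 90.6 and 93.5 CPM in WT and 82.9, 96.0 and 88.4 in RBM3KO. Of 7 pentose phosphate genes 0 passed, with a median of 0.05. Of these, 0 were separated upward and 2 downward, where 8.43% and 10.5% of all tested genes were. Tkt, encoding transketolase, had 436 ± 23.6 and 343 ± 28.4 CPM with no overlap (log2 fold change -0.35, edgeR adjusted p = 0.138), while Taldo1, encoding transaldolase, had 390 ± 11.4 and 414 ± 16.8 CPM and Pgls 191 ± 9.41 and 171 ± 3.61 CPM.

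Hif1a and non-glycolytic genes known to respond to HIF-1 were listed beside the enzymes, and 0 of 13 passed, where 1.25% of all tested genes did. The median log2 fold change was 0.48, with 9 of 13 estimates above 0 and 4 below, beside a median of 0.01 and 49.1% below 0 over all tested genes. Of the 13, 5 were separated upward and 1 downward, where 8.43% and 10.5% of all tested genes were. The 3 knockout libraries of Hif1a (165 ± 9.77 CPM) all lay above those of WT (116 ± 8.22 CPM), a difference of 0.51 on the log2 scale (SE 0.12, edgeR adjusted p = 0.073). Ero1l, an oxidase of the endoplasmic reticulum, had 274 ± 34.8 and 383 ± 9.83 CPM, also with no overlap (0.48, SE 0.11, edgeR adjusted p = 0.0678). Bnip3l, a mitophagy receptor, had 66.2 ± 8.51 and 81.9 ± 31.8 CPM.

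The mean profile of the 10 members over the 6 libraries was flat, from 0.10 above the gene's own mean log2 CPM in WT replicate 2 to 0.10 below it in RBM3KO replicate 3. The tested genes of at least 10 CPM closest to that profile, by root mean square difference over the 6 libraries, were Tmem147 (0.0192), Puf60 (0.0232) and Ppia (0.0259), against a median of 0.269 over 7598 genes. Among the members, Pkm2 (0.0533) and Ldha (0.0677) lay closest to their common mean and Hk2 (0.328) and Pgam1 (0.241) farthest.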

How the data were processed

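The deposited values are raw read counts by gene symbol, in a separate column for each of the 6 libraries, with 0 further columns. Per the submitters' processing notes, Bowtie 1.0.0, STAR 2.6.1c, featureCounts 1.6.5 and mm10 were used, with no role or order given. The sources used here give no annotation, strand setting or treatment of multi-mapping reads. Standard Smart-seq2 has no molecular identifiers, so PCR copies are counted.

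Genes were filtered with filterByExpr, which left 11382 of 14416, scaled by TMM and tested in R 4.3.3 with the robust quasi-likelihood test of edgeR 4.0.16, without covariates. P-values were adjusted over all tested genes. Log2 fold changes are RBM3KO minus WT. SE is the log2 fold change over the square root of F, and 95% intervals use the test's degrees of freedom. The fit was checked on simulated counts. Alternatives were DESeq2 1.42.0, limma-voom 3.58.1, other scalings and filters, a non-robust fit, thinned counts, a replicate block and each library left out. Shares were tested by exact permutation.

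Members, lists and tests were chosen with earlier results of these data known. Named are all 10 members, Rbm3, other pathway enzymes of at least 10 CPM, in each further pathway list the genes past the threshold or else the 3 highest, and the 3 genes closest in profile. Hif1a, Ero1l and Bnip3l, or Pfkfb3, Fbp1 and Pfkfb4, are such highest genes. Of the table's symbols, 13038 matched GENCODE M21 directly, 1200 by an older symbol and 178 did not. The labels do not say whether libraries came from different animals, and p-values therefore measure only a spread that may be technical. Every pair of libraries differed beyond sampling noise (chi-square per degree of freedom at least 21.5), so all 6 were kept.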

Additional observations from a re-analysis of the deposited data

How the results depend on the processing

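The number of enzymes called, 0 of 10, was also 0 under every alternative run except DESeq2, which called 1 (Gapdh). It was 0 without each library in turn. The number of all genes called was 142 in the reported fit, 414 with DESeq2 and 12 to 99 without each library in turn (12, 53 and 67 without WT replicates 1, 2 and 3, and 78, 41 and 99 without RBM3KO replicates 1, 2 and 3), and the cause of these differences was not tested. The log2 fold changes of 9 members kept their sign under all 15 alternatives, but not their size. Leaving out 1 library moved those of Hk2, Aldoa, Pgk1, Pgam1 and Ldha by over 1.5 times, as given beside each, and that of Pfkl from -0.068 to -0.017 and -0.105 without WT replicates 1 and 3 and to -0.008 and -0.113 without RBM3KO replicates 1 and 3. Pkm2 ran from -0.0693 to 0.0366 without each library in turn, above 0 when WT replicate 3 (0.00427) or RBM3KO replicate 3 (0.0366) was left out. The adjusted p of Gapdh was 0.0361 with DESeq2 and 0.0651 with limma-voom. The 3 isozyme shares kept their direction with raw counts, with the union of exons and without each library, from -2.69 to -1.22 percentage points for Hk2, 3.82 to 7.85 for Pfkp and -0.29 to -0.02 for Ldha. The ends of these ranges came without WT replicates 1 and 3 for Hk2 and for Ldha, and without RBM3KO replicate 1 and WT replicate 2 for Pfkp. The replicate block called 149 genes and 0 members. Deviations of same-numbered WT and RBM3KO libraries correlated over genes at 0.0555, 0.0574 and 0.0053, and those of differently numbered libraries at -0.0692 to 0.0212. WT replicate 3 did not correlate best with its own number. No label names a pairing, and correlations this small cannot decide whether same-numbered libraries are paired. Depth limits Hk2 most, at 79 counts in the shallowest library.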
